A study of Homo sapiens with 10 samples.

Results

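The 10 mucin genes MUC1, MUC2, MUC4, MUC5AC, MUC5B, MUC6, MUC13, MUC15, MUC16 and MUC20 were read by 27 of the 54675 probe sets on the arrays, and all 27 were among the 54613 that entered the test. Members were the probe sets annotated with exactly 1 gene symbol from this list, and every such probe set was kept. Named genes on the arrays numbered 19775 in all. The samples came from HuCCT1, an established human cholangiocarcinoma line grown in serum-containing medium. 5 arrays held cells with the construct labelled YAPS94A and 5 held cells with an empty vector. YAP1 is a transcriptional co-activator that works through TEAD DNA-binding partners. The sample labels and the title name S94A, which is known to weaken TEAD binding, whereas the design text names S127A, which is known to make YAP1 constitutively active. The values do not show which substitution was carried, so the sample label is used here. The comparison asks what this overexpressed construct did to the transcriptome. Nothing in the labels says whether the arrays come from separate cultures or clones, so a p-value here sets a difference against the scatter of arrays, which could be purely technical.

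Mucins are large glycoproteins whose repeated serine- and threonine-rich stretches carry dense O-linked sugar chains. MUC1, MUC4, MUC13, MUC15, MUC16 and MUC20 are membrane mucins, anchored at the apical cell surface, where several of them also meet growth factor receptors. MUC2, MUC5AC, MUC5B and MUC6 are gel-forming mucins, secreted as disulfide-linked polymers and encoded side by side on chromosome 11. In bile ducts they protect the epithelium from bile, and MUC1, MUC4 and MUC5AC are known from tissue studies of cholangiocarcinoma.

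RefSeq promoter windows of the build GRCh38.p14 were given for 5 of the 10 mucin genes, as 7 windows, and the 250 bases before the annotated start are given here for the 3 of these genes, MUC1, MUC4 and MUC13, whose transcripts differed most. MUC5AC, MUC5B, MUC6, MUC15 and MUC20 had no window. Each sequence runs 5′ to 3′ toward the start on the minus strand, at chr1:155192916-155193165 for MUC1, at chr3:195811930-195812179 for MUC4 and at chr3:124934752-124935001 for MUC13. Capitals mark GGAATG or its reverse complement CATTCC, the hexamer that TEAD factors are known to bind.
MUC1: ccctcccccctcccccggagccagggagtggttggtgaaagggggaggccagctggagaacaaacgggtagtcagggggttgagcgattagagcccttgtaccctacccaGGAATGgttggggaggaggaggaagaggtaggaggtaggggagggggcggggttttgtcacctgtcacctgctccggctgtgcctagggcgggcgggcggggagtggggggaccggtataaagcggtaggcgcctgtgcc
MUC4: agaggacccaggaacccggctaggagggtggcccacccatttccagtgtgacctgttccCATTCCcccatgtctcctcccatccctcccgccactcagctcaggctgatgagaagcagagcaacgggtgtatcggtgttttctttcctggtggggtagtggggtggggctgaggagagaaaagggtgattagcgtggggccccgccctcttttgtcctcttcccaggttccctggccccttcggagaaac
MUC13: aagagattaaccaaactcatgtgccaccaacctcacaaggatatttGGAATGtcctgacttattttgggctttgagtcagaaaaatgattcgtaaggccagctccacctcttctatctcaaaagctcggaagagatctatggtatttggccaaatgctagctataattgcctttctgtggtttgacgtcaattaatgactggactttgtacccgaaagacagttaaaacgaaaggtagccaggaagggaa

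The hexamer GGAATG, searched on both strands, lay 140 bases before the start of MUC1, 191 bases before that of MUC4 (as CATTCC) and 204 bases before that of MUC13. It was in none of the windows of MUC2 and MUC16, and 11.9% of 35116 promoter windows of the same length held it. The letters TGANTCA, with any base at N, were used as a loose pattern for AP-1 sites and were held by 6.57% of windows. They were found as TGAGTCA 178 bases before the MUC13 start. The match was TGAATCA 151 bases before the MUC2 start and 136 bases before the start of the second MUC16 window. The GC box GGGCGG, which SP and KLF factors bind, was held by 42.6% of windows and lay 4 times in the MUC1 window, 3 of them overlapping, and once each in the MUC4 window and the first MUC16 window. The STAT letters TTCNNNGAA, held by 6.57% of windows, were found 11 bases before the MUC4 start. No mucin window held the forkhead letters TGTTTAC, against 2.98% of all windows. These matches describe letters only, and MUC1 and MUC4 (higher) as well as MUC13 (lower) held GGAATG.

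The deposited values are log2 signals between 2.86 and 14.43, with array medians of 6.25 to 6.28. An array gives no count of molecules, so the number of arrays limits the precision. No detection calls were used here, and a background level of 5.87 was set at the 95th percentile of 107 probe sets for olfactory receptor genes, 57.0% of all probe sets being above it in at least one vector. All 3 probe sets of YAP1 were higher in the YAPS94A cells, by 0.52 ± 0.11, 0.56 ± 0.10 and 0.60 ± 0.065 (log2 difference ± SE), with no overlap between the vectors. The biliary epithelial character of the cells was measured on 11 marker genes, of which 9 were above background. Of the 11, 5 rose, 2 fell and 4 did not pass, where 17.8% of all genes rose and 16.6% fell. KRT7, KRT8, KRT18, KRT19 and CDH1 rose, and CFTR and SPP1 fell, SPP1 below background in both vectors. EPCAM, SOX9, SLC4A2 and AQP1 did not pass, AQP1 below background in both vectors. The keratin genes KRT7 and KRT19 read 13.76 ± 0.053 and 14.30 ± 0.025 in YAPS94A cells and 13.59 ± 0.070 and 14.07 ± 0.053 in empty vector cells (mean ± SD, n = 5 each). CFTR, the bile duct chloride channel, was below background in YAPS94A cells at 4.30 ± 0.11 and read 8.20 ± 0.20 in empty vector cells. In such bulk RNA fewer cells of a type and less RNA per cell cannot be told apart.

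Membrane mucins were higher in YAPS94A cells in most cases, and gel-forming mucins were lower or did not pass. Of the 27 mucin probe sets 14 rose, 6 fell and 7 did not pass (limma, adjusted p under 0.05), where 13.9% of all probe sets rose and 14.7% fell. The arrays of the vectors did not overlap on 18 of the 27 (66.7%), against 23.0% of all probe sets. The 27 include several probe sets of the same genes, and on the brightest of each gene 5 of 10 did not overlap. No share over the brightest probe sets of all genes is given here, so the 5 of 10 was not read against one. A difference of at least 2-fold was reached by 8 mucin probe sets, all higher and all in MUC1, MUC4 or MUC20, against 1.28% of all probe sets (higher), and by no mucin probe set in the lower direction, against 0.921%. The median difference over the 27 was 0.29, and over all probe sets it was -0.01. Among the 18 membrane mucin probe sets 14 rose, 2 fell and 2 did not pass, with a median of 0.73. Among the 9 gel-forming probe sets none rose in the limma test, 4 fell and 5 did not pass, with a median of -0.17. The split between these classes was described and not tested. On the brightest probe set of each gene MUC1, MUC4, MUC16 and MUC20 rose and MUC13 and MUC6 fell, while MUC2, MUC5AC, MUC5B and MUC15 did not pass, where 17.8% of all genes rose and 16.6% fell.

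**Figure D1:**
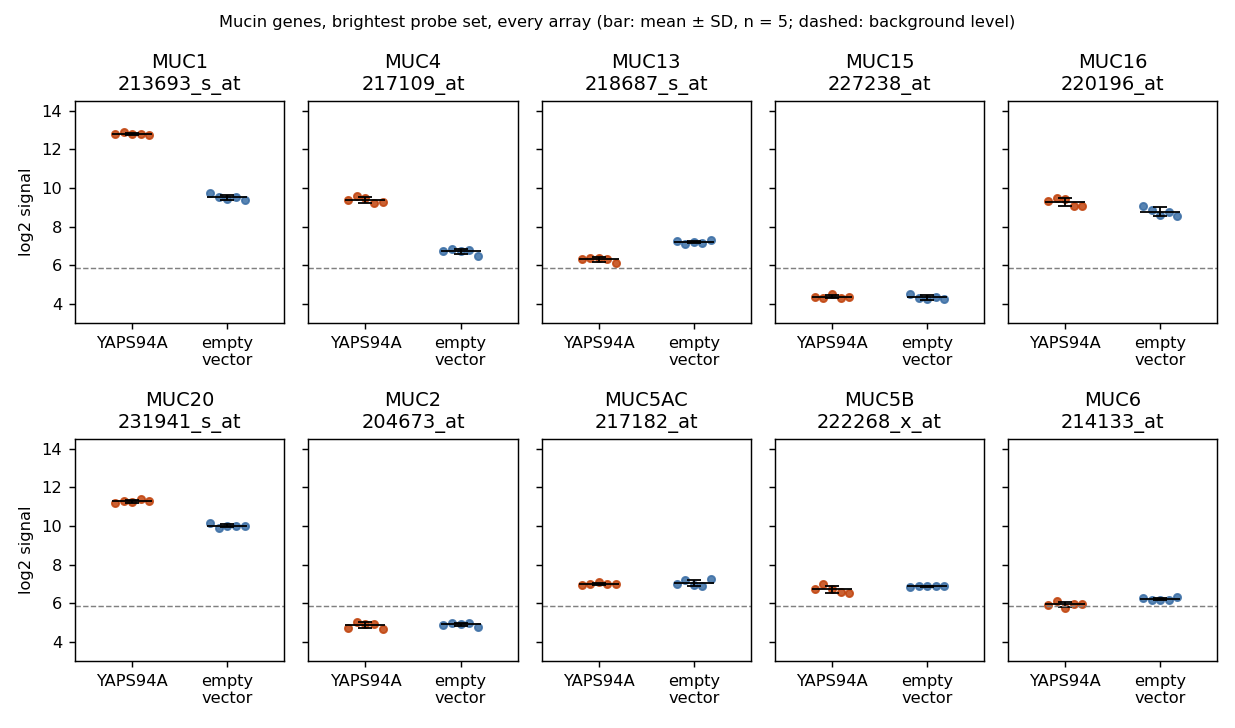
Log2 signal (vertical axis) of the brightest probe set of each mucin gene on every array, with the 5 YAPS94A arrays on the left and the 5 empty vector arrays on the right of each panel. Bars are mean ± SD and the dashed line is the background level of 5.87. MUC1, MUC4 and MUC20 separate with YAPS94A above and MUC13 with YAPS94A below, MUC16 overlaps, and MUC2 and MUC15 lie under the line in both vectors.

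MUC1, the membrane mucin whose cytoplasmic tail signals through kinases and beta-catenin, had the largest difference of the mucins. Its brightest probe set (213693_s_at) read 12.81, 12.90, 12.80, 12.79 and 12.74 on the YAPS94A arrays, against 9.73, 9.53, 9.42, 9.52 and 9.40 on the empty vector arrays. The lowest YAPS94A array, at 12.74, lay far above the highest empty vector array, at 9.73. The means were 12.81 ± 0.058 and 9.52 ± 0.13 (SD, n = 5 each), a difference of 3.29 ± 0.062 (SE) or 9.77-fold (limma adjusted p = 1.33e-11). Only 0.086% of the 19775 genes had a larger positive difference, which placed MUC1 18th from the top.

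The other probe sets of MUC1 moved with it. On 207847_s_at the YAPS94A arrays read 12.33, 12.38, 12.30, 12.38 and 12.32, against 8.86, 8.97, 8.61, 8.93 and 8.76 with empty vector, a rise of 3.52 ± 0.064 or 11.4-fold. On 211695_x_at they read 11.75, 11.79, 11.65, 11.65 and 11.77, against 8.93, 8.74, 8.43, 8.79 and 8.67 with empty vector, a rise of 3.01 ± 0.080 or 8.05-fold. All 3 carry a suffix, _s_at for probes shared between transcripts or _x_at for probes that may also bind unrelated sequences. All lay far above background in both vectors. Their differences were not equal, since the pairs differed by 0.23, 0.28 and 0.51 log2 units (exact permutation, adjusted p = 0.015, 0.0257 and 0.015 over the 34 pairs of probe sets of 1 mucin gene).

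MUC4, a large membrane mucin that binds the receptor ERBB2, rose on all 6 of its probe sets, and no empty vector array reached a YAPS94A array on any of them. On the brightest (217109_at) the YAPS94A arrays read 9.36, 9.58, 9.51, 9.25 and 9.27, against 6.75, 6.83, 6.74, 6.79 and 6.50 with empty vector. The means were 9.39 ± 0.14 and 6.72 ± 0.13 (SD, n = 5 each), a difference of 2.67 ± 0.079 (SE) or 6.36-fold (limma adjusted p = 4.69e-10), with 0.197% of genes above it. The lowest value of the set, 6.50 on empty vector array 5, still lay above the background level.

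The size of the MUC4 rise depended on the probe set. On 217110_s_at the YAPS94A arrays read 8.24, 8.20, 7.93, 7.90 and 7.90, against 5.77, 5.38, 5.55, 5.44 and 4.97 with empty vector. All of these empty vector arrays were below background, so the fitted rise of 2.61 ± 0.13 was given as at least 4.49-fold and was not compared in size with that of 217109_at. On 204895_x_at the YAPS94A arrays read 7.96, 8.00, 7.83, 7.93 and 8.00, against 6.50, 6.66, 6.92, 6.67 and 6.84 with empty vector, a rise of 1.22 ± 0.074 (2.33-fold). That was 1.45 ± 0.14 less than on 217109_at (exact permutation adjusted p = 0.015). The dim probe set 1561785_at rose by at least 1.26-fold, all of its empty vector arrays being below background (fitted difference 0.41 ± 0.054). The probe sets 235055_x_at and 240164_at passed with differences of 0.32 ± 0.079 and 0.29 ± 0.058, at or below background in both vectors. The mean difference over all 6 probe sets, these included, was 1.25.

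MUC20, a membrane mucin that is known to bind the receptor MET, rose on all 4 of its probe sets. On the brightest (231941_s_at) the YAPS94A arrays read 11.20, 11.29, 11.22, 11.38 and 11.28, against 10.16, 9.91, 10.02, 9.99 and 10.00 with empty vector. The means were 11.28 ± 0.072 and 10.02 ± 0.089 (SD, n = 5 each), a difference of 1.26 ± 0.052 (SE) or 2.40-fold (limma adjusted p = 7.94e-09). Every YAPS94A array lay above every empty vector array here and on the other 3 probe sets.

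The second bright probe set of MUC20 (226622_at) read 11.16, 11.25, 11.14, 11.26 and 11.20 with YAPS94A, against 10.12, 9.91, 9.98, 9.87 and 9.82 with empty vector, and its rise of 1.26 ± 0.057 was 0.0029 ± 0.035 from that of the first (exact permutation adjusted p = 0.952). The probe sets 230043_at and 243774_at rose by 0.95 ± 0.044 and 0.30 ± 0.059. The smallest of these rises, on the dimmest MUC20 probe set, was 0.96 ± 0.079 below that of the brightest (exact permutation adjusted p = 0.015).

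MUC16, the membrane mucin that carries the tumour marker CA125, rose by less and with overlap. Its single probe set (220196_at) read 9.31, 9.49, 9.45, 9.05 and 9.10 with YAPS94A, against 9.09, 8.87, 8.63, 8.77 and 8.56 with empty vector. YAPS94A array 4 lay below empty vector array 1, and YAPS94A array 5 was practically level with it (9.0952 and 9.0948). The other YAPS94A arrays were above every empty vector array. The means were 9.28 ± 0.20 and 8.78 ± 0.21 (SD, n = 5 each), a difference of 0.50 ± 0.11 (SE) or 1.41-fold (limma adjusted p = 0.00592, exact two-sided permutation p = 0.0159). Larger positive differences were found in 6.57% of genes.

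MUC13, a membrane mucin of gut and biliary surface epithelium, was the membrane mucin that fell. Its brighter probe set (218687_s_at) read 6.32, 6.40, 6.41, 6.32 and 6.10 with YAPS94A, against 7.26, 7.13, 7.20, 7.16 and 7.30 with empty vector. Every YAPS94A array lay below every empty vector array and still above the background level. The means were 6.31 ± 0.12 and 7.21 ± 0.070 (SD, n = 5 each), a difference of -0.90 ± 0.061 (SE) or a 1.87-fold decrease (limma adjusted p = 4.88e-07), and 1.53% of genes had a lower difference. The second probe set (222712_s_at) fell by 0.51 ± 0.081, but its means of 5.28 with YAPS94A and 5.79 with empty vector were both below background.

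MUC15, a membrane mucin, had no probe set above background in either vector. Its probe sets 227238_at and 227241_at read 4.38 ± 0.071 and 3.49 ± 0.041 in YAPS94A cells and 4.34 ± 0.11 and 3.52 ± 0.044 in empty vector cells (SD, n = 5 each). They differed by 0.04 ± 0.058 and -0.03 ± 0.037, within the spread between arrays (limma adjusted p = 0.692 and 0.610). At that level a difference in MUC15 could not be measured.

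**Figure D2:**
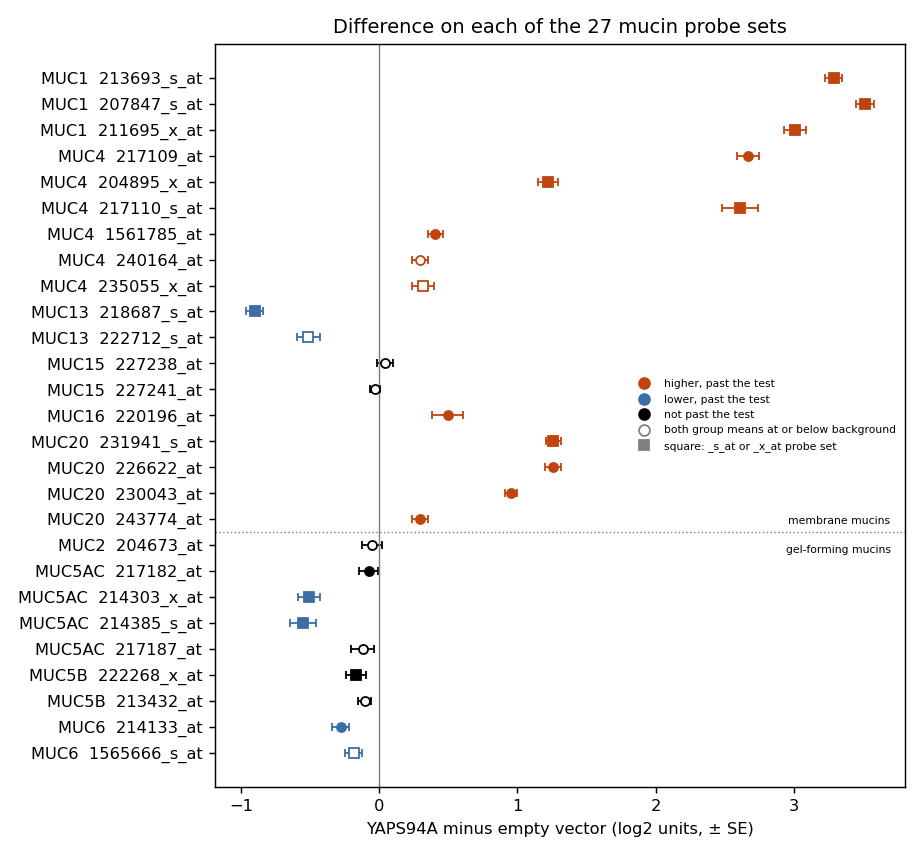
Difference of YAPS94A minus empty vector in log2 units (horizontal axis, ± SE from the fit, 5 arrays a vector) for each of the 27 mucin probe sets, grouped by gene with the brightest first. Orange marks higher, blue lower and black not past the test, squares are _s_at or _x_at probe sets and open symbols lie at or below background in both vectors. All MUC1, MUC4 and MUC20 probe sets lie right of zero, and MUC4 spreads between 0.29 and 2.67.

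Among the gel-forming mucins no probe set rose, and the falls were small. MUC5AC, the main gel-forming mucin of stomach surface and airway, was read by 4 probe sets that did not move alike. The brightest over all arrays (217182_at) read 6.94, 6.99, 7.09, 6.98 and 7.00 with YAPS94A, against 7.01, 7.22, 6.97, 6.92 and 7.28 with empty vector. The vectors overlapped fully there, with a difference of -0.08 ± 0.070 (limma adjusted p = 0.491). On 214303_x_at, almost as bright, the YAPS94A arrays read 6.84, 7.02, 6.56, 6.72 and 6.64, against 7.12, 7.29, 7.31, 7.34 and 7.27 with empty vector, and the probe set fell by 0.51 ± 0.081 (limma adjusted p = 0.000495). No arrays overlapped on it, nor on 214385_s_at, where 5.86, 5.89, 5.95, 5.83 and 5.55 with YAPS94A stood against 6.48, 6.40, 6.58, 6.28 and 6.10 with empty vector, and it fell by 0.55 ± 0.095. The YAPS94A mean of 214385_s_at, 5.82, was below background, which limits the size that can be measured. The difference on 214303_x_at was 0.43 ± 0.13 below that on 217182_at (exact permutation adjusted p = 0.0257). Of the MUC5AC probe sets that fell 214303_x_at carries the suffix _x_at and 214385_s_at the suffix _s_at. The fourth (217187_at) was below background at 4.94 with YAPS94A and 5.06 with empty vector and did not pass.

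MUC6, a gel-forming mucin of stomach glands and of the glands around bile ducts, fell slightly. Its brighter probe set (214133_at) read 5.92, 6.13, 5.77, 5.97 and 5.97 with YAPS94A, against 6.29, 6.18, 6.19, 6.17 and 6.32 with empty vector. The vectors did not overlap, but the highest YAPS94A array (6.13) lay close under the lowest empty vector array (6.17), and YAPS94A array 3 was below background. The difference was -0.28 ± 0.062 or 1.21-fold lower (limma adjusted p = 0.00493). The dimmer MUC6 probe set (1565666_s_at) also fell, by 0.18 ± 0.060 (limma adjusted p = 0.0391), at 3.66 with YAPS94A and 3.84 with empty vector, far below background and with overlap.

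MUC5B, a gel-forming mucin of airway and bile duct glands, did not pass. Its brighter probe set (222268_x_at) read 6.75, 6.99, 6.74, 6.61 and 6.55 with YAPS94A, against 6.86, 6.90, 6.90, 6.91 and 6.89 with empty vector. All YAPS94A arrays but array 2 lay below every empty vector array, and the YAPS94A arrays were more spread (SD 0.17 with YAPS94A and 0.021 with empty vector, n = 5 each). The difference was -0.17 ± 0.071 (limma adjusted p = 0.112, exact permutation p = 0.0476 before adjustment). Without YAPS94A array 2 it was -0.23 ± 0.049 and passed (limma adjusted p = 0.00428). The other MUC5B probe set (213432_at) was below background and differed by -0.11 ± 0.049 (limma adjusted p = 0.145).

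MUC2, the gel-forming mucin of intestinal goblet cells, was below background in both vectors. Its single probe set (204673_at) read 4.74, 5.04, 4.94, 4.95 and 4.68 with YAPS94A, against 4.90, 5.01, 4.92, 4.99 and 4.80 with empty vector. The arrays overlapped, with a difference of -0.05 ± 0.072 (limma adjusted p = 0.657). A MUC2 difference could not be measured at that level.

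**Figure D3:**
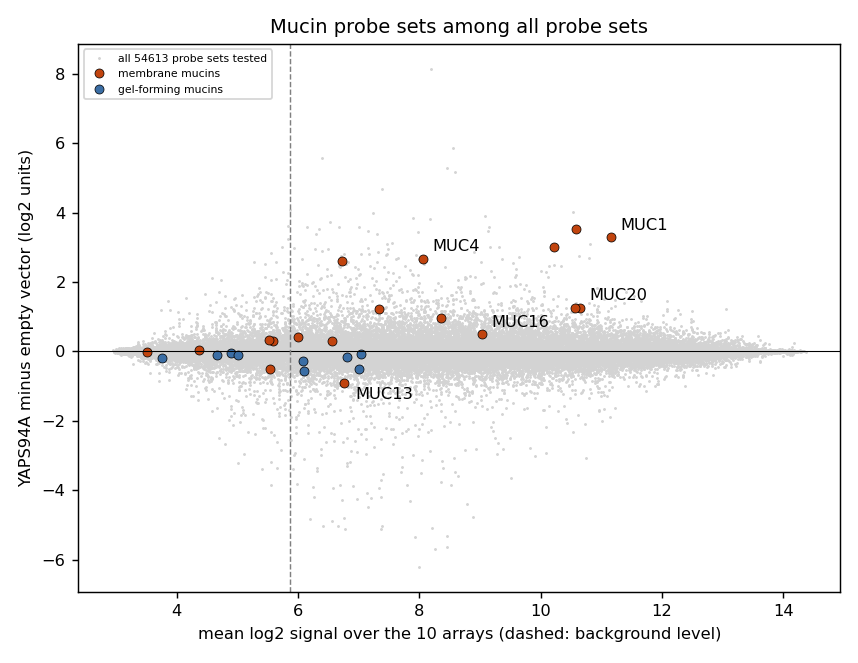
Difference of YAPS94A minus empty vector in log2 units (vertical axis) against the mean log2 signal over the 10 arrays (horizontal axis), for the 54613 probe sets tested (grey), the 18 membrane mucin probe sets (orange) and the 9 gel-forming ones (blue). The dashed line is the background level of 5.87. The 3 MUC1 probe sets sit above 3 at high signal, while the gel-forming probe sets lie under zero at mean signals of 3.75 to 7.04.

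Probe sets of the same gene often differed in the size of their YAPS94A minus empty vector difference. Of the 34 pairs of probe sets from 1 mucin gene, 11 had both probe sets above background in both vectors by their means, and 10 of these differed in size (exact permutation, adjusted p under 0.05 over the 34). They were the 3 pairs of MUC1, 5 of the 6 pairs of MUC20, 1 pair of MUC4 and 1 pair of MUC5AC. In the other pairs a level at background limits the size that can be measured, and no comparison was drawn from them. No mucin gene had 1 probe set that rose and another that fell. Of the 27 probe sets 9 were at or below background in both vectors. Among these 9, 2 rose and 2 fell, where 13.9% of all probe sets rose and 14.7% fell.

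MUC20 and MUC4 are neighbours on chromosome 3, and both rose, while the genes next to them moved little. MIR570HG beside MUC20 and TNK2 beside MUC4 differed by 0.20 ± 0.093 and 0.22 ± 0.095 and did not pass (limma adjusted p = 0.142 and 0.118). Of the others around the pair TFRC, the transferrin receptor gene, fell by 0.14 ± 0.039, and PPP1R2, APOD and TNK2-AS1 did not pass. The median difference of the 30 nearest genes above the median level was 0.030 for both MUC4 and MUC20.

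Around MUC1 on chromosome 1 the next gene, THBS3, encoding a thrombospondin, rose by 0.66 ± 0.12 (limma adjusted p = 0.00124), and MTX1 and DPM3 rose by 0.11 ± 0.036 and 0.20 ± 0.056. KRTCAP2, TRIM46 and ENTREP3 did not pass, and the MUC1 neighbour median was 0.055. The gel-forming genes on chromosome 11 had neighbour medians of 0.092 to 0.138, above their own differences. None of the neighbours that are not mucins there, AP2A2, LINC02688, TOLLIP, TOLLIP-DT, BRSK2, CHID1 and TSPAN4, passed the limma test.

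MUC13, elsewhere on chromosome 3, fell between genes that moved both ways. KALRN and ITGB5 rose by 1.30 ± 0.12 and 0.54 ± 0.11, UMPS, HEG1 and SLC12A8 fell by 0.22 ± 0.061, 0.31 ± 0.092 and 0.54 ± 0.041, and ZNF148 did not pass. The neighbour median of MUC13 was -0.069. Of the 6 neighbours of MUC16 on chromosome 19 ZNF317 fell, by 0.34 ± 0.090, while ACTL9, ZNF558, MBD3L1, OR7D2 and OR7E24 did not pass. The neighbours of MUC15 (SVIP, LUZP2, ANO3, SLC5A12, FIBIN and BBOX1) did not pass either.

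**Figure D4:**
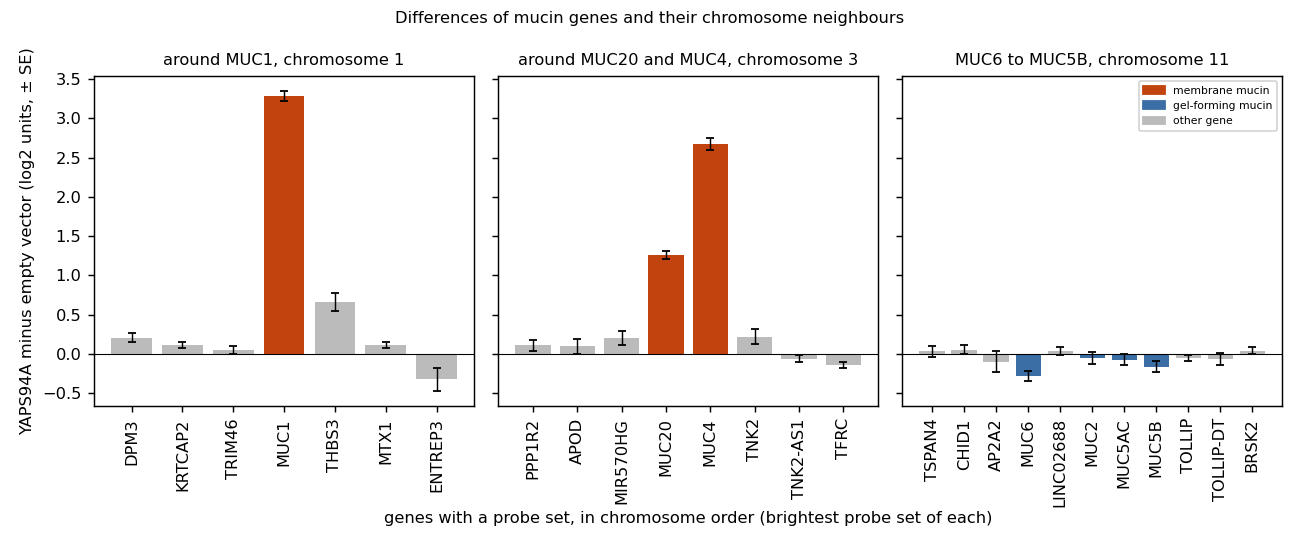
Differences of YAPS94A minus empty vector in log2 units (vertical axis, bars from 0, ± SE, 5 arrays a vector) for mucin genes and their nearest genes with a probe set, in chromosome order. MUC1, MUC20 and MUC4 stand above neighbours that lie between -0.33 and 0.66, and the gel-forming genes lie between -0.28 and -0.05.

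The genes whose pattern over the 10 arrays was most like that of a mucin were found for those with a difference of at least 1 log2 unit. For MUC1 they were CALB1, the calcium-binding protein calbindin, FAM171A1 and CADPS2 (Pearson r = 0.9995, 0.9993 and 0.9991). For MUC4 they were CCDC69, FAM171A1 and CADPS2 (r = 0.999, 0.9983 and 0.9979), and for MUC20 SPANXB1, PCYOX1L and SFTA1P (r = 0.9986, 0.9974 and 0.997). These values are descriptive, since the arrays form a separate cluster for each vector. An r above 0.99 was reached with MUC1 by 255 of 19774 genes, with MUC4 by 182 and with MUC20 by 148.

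In the list of other mucin genes, which also holds the adhesion molecule gene MCAM, 11 of 14 were measured. Of these 2 rose, 2 fell and 7 did not pass, where 17.8% of all genes rose and 16.6% fell. MUCL3, a cell-surface mucin-like gene, rose. Its brightest probe set read 7.63, 7.76, 7.38, 7.45 and 7.67 with YAPS94A, against 5.61, 4.86, 5.40, 4.71 and 4.87 with empty vector. All 5 empty vector arrays were below background and all 5 YAPS94A arrays above it, so the fitted rise of 2.49 ± 0.16 (limma adjusted p = 3.33e-07) corresponds to at least 3.27-fold. OVGP1, the oviduct glycoprotein gene, rose by 0.31 ± 0.070. CD164, the sialomucin endolyn, fell by 0.19 ± 0.049, while the median of its 30 neighbours was -0.31, so that relative to them CD164 stood at 0.12 (limma adjusted p = 0.0793). MCAM, a cell adhesion molecule and not a mucin, fell by 0.16 ± 0.054 with overlap between the vectors and close to the threshold (limma adjusted p = 0.0472), and in 8 of the 10 fits without 1 array only 1 gene of the list fell. The membrane mucins MUC3A, MUC12 and MUC17, the gel-forming MUC19 and the secreted MUC7 and MUCL1 were below background in both vectors and did not pass.

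Genes whose products sit in mucus with the mucins went both ways. Of 14 measured 3 rose, 4 fell and 7 did not pass, with a median of -0.02, where 17.8% of all genes rose and 16.6% fell. TFF1, the trefoil peptide secreted with MUC5AC, averaged 6.82 ± 0.065 in YAPS94A cells and 7.99 ± 0.10 in empty vector cells (SD, n = 5 each), and fell by 1.18 ± 0.055 (2.26-fold). PIGR, which carries immunoglobulin A into bile, fell by 1.04 ± 0.055 (0.48 as the mean of its probe sets), FCGBP, which binds to mucin gels and whose YAPS94A mean was below background, by 0.86 ± 0.13, and the lectin gene ITLN1, below background, by 0.28 ± 0.067. ZG16B, a secreted lectin, rose by 0.82 ± 0.080. The trefoil gene TFF2 and LGALS3, the galectin that binds MUC1, rose by 0.26 ± 0.077 and 0.20 ± 0.032.

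Genes for folding and packaging mucins split evenly, with 5 of 15 up, 5 down and 5 that did not pass, against 17.8% up and 16.6% down among all genes. AGR2, the disulfide isomerase needed for gel-forming mucins, averaged 12.31 ± 0.037 in YAPS94A cells and 12.85 ± 0.037 in empty vector cells (SD, n = 5 each), and fell by 0.55 ± 0.036. CREB3L1, a transcription factor of the secretory pathway, fell by 2.11 ± 0.12 (1.15 as the mean of its probe sets) and the stress sensor gene ERN1 by 0.63 ± 0.047. RAB27B fell by 0.27 ± 0.041 and AGR3, below background, by 0.36 ± 0.046. RAB3D, a GTPase of secretory granules, rose by 1.07 ± 0.080 (0.62 as the mean of its probe sets), and SYTL4, CREB3L4, VAMP8 and ANO1 rose by 0.26 to 0.56.

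Of 22 measured transcription factor genes known to act on mucin promoters 6 rose, 4 fell and 12 did not pass, where 17.8% of all genes rose and 16.6% fell. ELF3, an epithelial ETS factor, averaged 11.62 ± 0.060 in YAPS94A cells and 10.80 ± 0.098 in empty vector cells (SD, n = 5 each), a rise of 0.81 ± 0.053. KLF4, which with its relatives binds GC boxes, rose by 0.71 ± 0.067. FOXA1, a forkhead factor, fell by 1.16 ± 0.11 (0.62 as the mean of its probe sets), and SPDEF, the goblet cell factor, by 0.66 ± 0.046 on an _x_at probe set. FOXA3 and GATA4 fell by 0.73 ± 0.14 and 0.59 ± 0.15. STAT6, KLF5, CDX2 and ETV5 rose by 0.14 to 0.37, CDX2 with all of its empty vector arrays below background.

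Enzymes that build the O-linked sugars of mucins rose in 10 of 21 cases, fell in 4 and did not pass in 7, with a median of 0.083, where 17.8% of all genes rose and 16.6% fell. GCNT1, which makes the branched core structure, averaged 7.34 ± 0.11 in YAPS94A cells and 9.48 ± 0.13 in empty vector cells (SD, n = 5 each), and fell by 2.14 ± 0.072 (4.42-fold). C1GALT1, which makes the core that GCNT1 extends, fell by 0.61 ± 0.094 and GALNT11 by 0.25 ± 0.063. GCNT3, another branching enzyme, fell by at least 1.19-fold, all of its YAPS94A arrays being below background. GALNT18, of the family that adds the first sugar, rose by 1.47 ± 0.14 (0.74 as the mean of its probe sets). The sialyltransferase genes ST6GALNAC2 and ST3GAL1, whose products cap short chains, rose by 0.68 ± 0.074 and 0.55 ± 0.064. ST6GALNAC1, B3GNT3, GALNT5, GALNT12, GALNT2, GALNT10 and GALNT7 rose by 0.15 to 0.70. The empty vector mean of ST6GALNAC1 was below background.

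Of 16 measured receptors, ligands and proteases that act on membrane mucins 2 rose, 2 fell and 12 did not pass, where 17.8% of all genes rose and 16.6% fell. The number that fell was 5 with 1 probe set per gene, with the intensity trend and with the RNA quality covariate. In the first of these fits 3484 of 19775 genes fell in all. With the trend 8134 and with the covariate 9983 of 54613 probe sets fell, against 8039 in the main fit. MSLN, mesothelin, the ligand of MUC16, averaged 7.21 ± 0.11 in YAPS94A cells and 6.71 ± 0.20 in empty vector cells (SD, n = 5 each), a rise of 0.50 ± 0.090. MET, the receptor that MUC20 binds, rose by 0.11 ± 0.032, and ERBB2, the receptor that MUC4 binds, differed by 0.13 and did not pass. The MUC1 sheddase genes MMP14 and ADAM17 fell by 0.34 ± 0.052 and 0.21 ± 0.056.

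**Figure D5:**
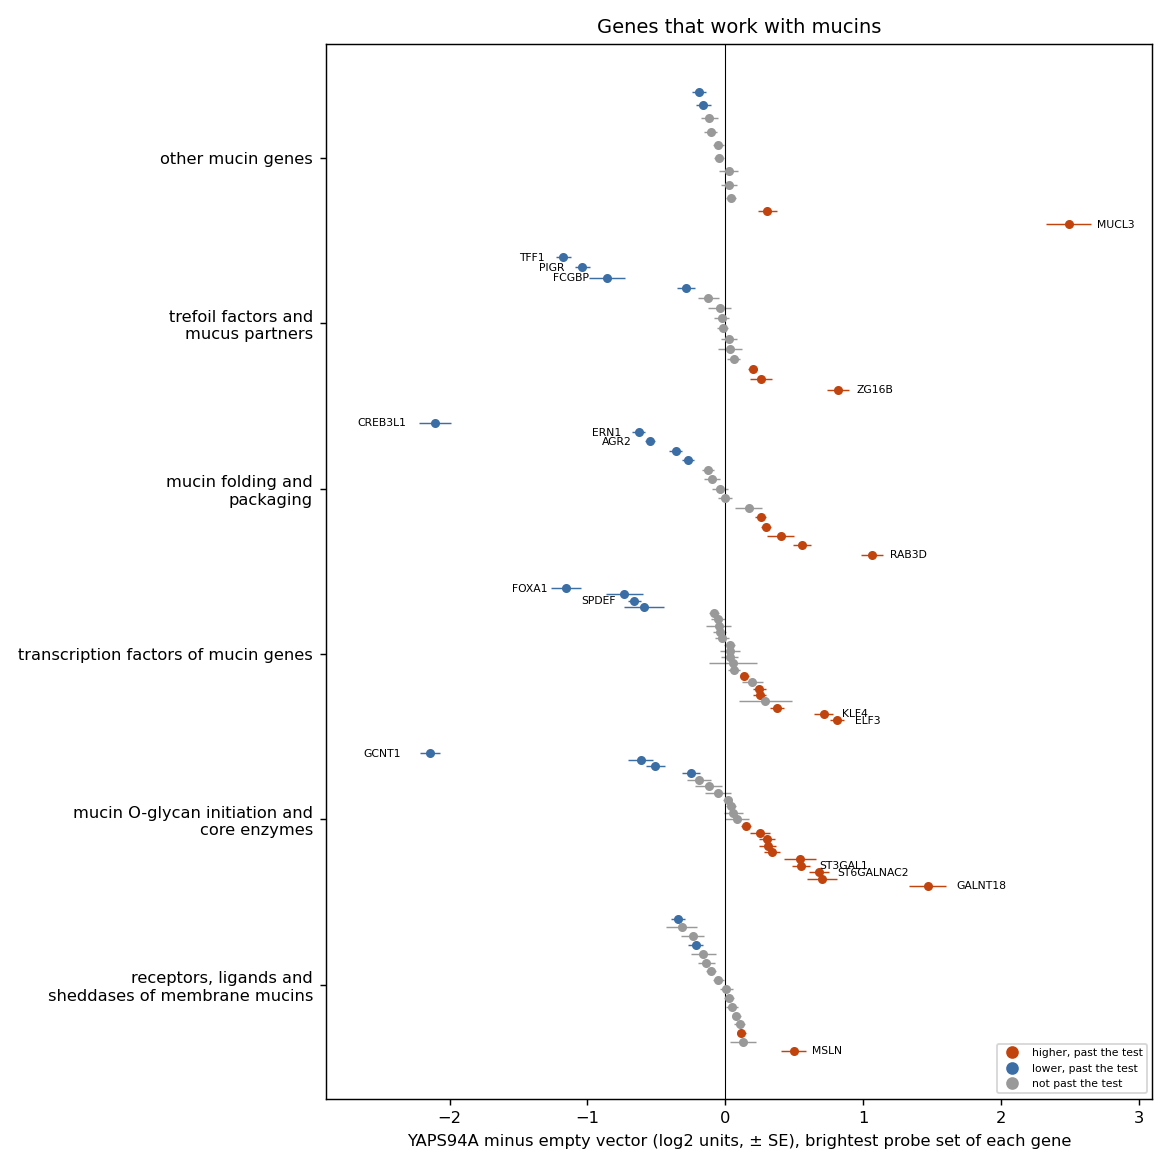
Differences of YAPS94A minus empty vector in log2 units (horizontal axis, ± SE, 5 arrays a vector) for the brightest probe set of each measured gene in 6 lists of genes that work with mucins. Orange marks higher, blue lower and grey not past the test, with MUCL3 farthest right at 2.49 and GCNT1 and CREB3L1 farthest left at -2.14 and -2.11.

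Among markers of other cell types a few genes passed the limma test, where 17.8% of all genes rose and 16.6% fell. The number of markers above background in at least one vector was 5 of 8 for fibroblasts, 3 of 8 for hepatocytes, 2 of 6 for leukocytes and 1 of 8 for endothelium. Of 8 fibroblast markers 1 rose (LUM, by 2.67 ± 0.088) and 1 fell (PDGFRA), with a summed linear signal of 2232 to 2612 in YAPS94A cells and 947 to 1133 in empty vector cells, and COL3A1 was below background. Of 8 hepatocyte markers FGB and SERPINA1 fell, with sums of 6562 to 7200 in YAPS94A cells and 7429 to 8174 in empty vector cells, and ALB was below background. Of 6 leukocyte markers LYZ fell, with sums of 247 to 257 in YAPS94A cells and 310 to 345 in empty vector cells, and PTPRC was below background. Of 8 endothelial markers ESAM rose, with sums of 639 to 757 in YAPS94A cells and 529 to 623 in empty vector cells, and PECAM1 was below background. The differences in these sums came mostly from a single gene in each list. LUM read 10.70 in YAPS94A cells and 8.04 in empty vector cells, and SERPINA1 read 12.65 and 12.84. LYZ read 5.42 and 6.90, and ESAM 8.81 and 8.38, in the same order. The part of the markers in the mucin differences was not tested. The 3′ minus 5′ signal of control genes, a sign of RNA quality, was 0.589 ± 0.16 in YAPS94A cells and 0.641 ± 0.15 in empty vector cells (SD, n = 5 each). With it as a covariate 14 mucin probe sets rose and 6 fell, the same counts as without it. Over all 54613 probe sets the covariate raised the counts, to 9389 higher and 9983 lower from 7604 and 8039.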

How the data were processed

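Total RNA was amplified with NuGEN kits, labelled with biotin and hybridised to Affymetrix arrays, per the labels' protocols. The deposited values are log2 signals, 1 per probe set and array. The method of summary and normalization was not given in the sources used here, and the values were used as deposited. Names came from the annotation of the platform: 41097 probe sets had 1 symbol, 1801 several and 11777 none, and the symbols of 41043 of these 41097 probe sets were found in the RefSeq table, whose gene order of GRCh38.p14 gave the neighbours.

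The vectors were compared with limma 3.58.1 (R 4.3.3; lmFit, eBayes, no covariate, two-sided) over the 54613 probe sets that are not controls, the 62 controls being left out, with Benjamini-Hochberg adjustment over all of them and a threshold of 0.05. The fit was tested on simulated data. Differences are YAPS94A minus empty vector with SE. Single probe sets were also compared by an exact permutation test over the 252 splits of 5 against 5, whose smallest p is 0.0079. Differences between probe sets of a gene were tested the same way on the per-array differences. Each gene outside the mucins was read on its brightest probe set over the 10 arrays. A fold against arrays that were all below background is a lower bound computed from the background level.

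Named were all mucin probe sets, up to 4 genes of each companion list with the smallest adjusted p and no overlap, the 3 genes most like each mucin with a difference of at least 1, the nearest 3 neighbours on each side and YAP1. ITLN1, TFF2, LGALS3, MCAM, AGR3, RAB27B, SYTL4, CREB3L4, VAMP8, ANO1, FOXA3, GATA4, STAT6, KLF5, CDX2, ETV5, C1GALT1, GCNT3, GALNT11, ST6GALNAC1, B3GNT3, GALNT5, GALNT12, GALNT2, GALNT10, GALNT7, ADAM17, ERBB2, the members of the companion lists below background and the second probe sets were named after their values were seen. The members, gene lists and motif letters were chosen with earlier results of these data known.

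Both vectors carry the numbers 1 to 5. After subtraction of group means, same-numbered arrays correlated at 0.0629 to 0.543 over probe sets, above 0.1 in 4 of 5 pairs, and at 0.1022 to 0.59 over genes, above 0.1 in 5 of 5. The fit runs over probe sets, where not every pair was above 0.1, so the numbers were not treated as pairs, and the fit with them as a block is an alternative. No 2 arrays were identical, and array correlations were 0.9957 to 0.9991 within and 0.9867 to 0.9901 between vectors. Alternatives were quantile normalization, median centring, 2 filters on dim probe sets, 2 other ways to represent a gene, leaving out _x_at and _s_at probe sets, an intensity trend, array weights, a replicate block, an RNA quality covariate, subtraction of the neighbour median, leaving out the arrays numbered 1 and 2, and leaving out each array in turn.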

Additional observations from a re-analysis of the deposited data

Results flagged for a closer look

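Single arrays that stood apart from the other 4 of their vector were sought on all 27 mucin probe sets, which gave 54 groups of 5 arrays. The gap to the nearest array, divided by the range of the group, passed Dixon's value of 0.71 in 2 groups, and chance flags about 1 group in 20. On the MUC13 probe set 218687_s_at, YAPS94A array 5 read 6.10, below the next array at 6.32, with the highest at 6.41 (ratio 0.713). On the MUC4 probe set 217109_at, empty vector array 5 read 6.50, below the next array at 6.74, with the highest at 6.83 (ratio 0.719). Leaving out each array in turn kept the MUC13 difference between -0.92 and -0.85 and the MUC4 difference between 2.61 and 2.71, past the limma threshold each time.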

How the results depend on the processing

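MUC1, MUC4, MUC16, MUC20, MUC13 and MUC6 kept their direction and their call under every alternative that gave them a value. Their differences ranged between 3.23 and 3.34, 1.25 and 2.71, 0.44 and 0.58, 0.94 and 1.30, -0.95 and -0.71, and -0.42 and -0.23, in that order. MUC5B passed as the mean of its probe sets (-0.14), with array weights (-0.20), relative to its neighbours (-0.26) and without the arrays numbered 1 and 2 (-0.27), and ranged between -0.23 and -0.12 when each array was left out, passing without YAPS94A array 2. MUC5AC passed as the mean of its probe sets (-0.31), where 4 of 10 mucin genes and 3700 of all 19775 genes fell. CD164 turned to 0.12 relative to its neighbours. Without _x_at and _s_at probe sets, 7 mucin probe sets rose and 1 fell of the 14 left, and 4846 rose and 5348 fell of 39114 in all, fewer being tested. MUC1 and MUC13 then had no probe set, and the brightest ones of MUC20 and MUC5B were not among those left. Above the median level 11 of 15 mucin probe sets rose and 2 fell, and 6399 rose and 6682 fell of 27306 in all. With the array number as a replicate block 14 mucin probe sets rose and 6 fell, as without it, and 8855 and 9404 of all probe sets did, against 7604 and 8039. The block changed no call of a mucin gene on its brightest probe set. Of 10 arrays 4 were most like their own number. Leaving out each array in turn gave 14 mucin probe sets higher and 5 to 6 lower, and 6888 to 7670 higher and 7075 to 7974 lower among all. Relative to its neighbours (0.06), as the mean of its probe sets (0.41) and without the arrays numbered 1 and 2 (0.11) MET did not pass. The receptor list had 2 to 5 genes lower and the list of other mucin genes 0 to 3 lower over all alternatives. Among all probe sets 5348 to 9983 fell over the alternatives fitted on probe sets, the smallest number with fewer tested. MUC15 had no value under either filter on level, and MUC2 and MUC6 had none above the median level. Signals near or below background limit what MUC2, MUC15, MUC6 and the dimmer probe set of MUC5B can show.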
